A study of Mus musculus with 13 samples.

Results

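The mouse orosomucoid genes Orm1, Orm2 and Orm3 were followed through 13 RNA sequencing libraries of mammary gland. Their rows were taken by symbol from the deposited expression tables, in which all 3 genes were found among 23951 gene symbols. They were singled out because an earlier look at these tables had shown Orm2 far lower in knockout than in control glands during involution. That contrast is therefore described here without a test for the 3 genes and their sum, which are tested at lactation only. Other genes are tested at involution too, among them lists chosen with earlier results of these data known.

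Whole glands came from females with a conditional knockout of Jak1, the gene of the kinase JAK1, and from wildtype controls. Glands were taken on day 7 of lactation (3 controls, labelled M42186, M43768 and M44175, and 3 knockouts, M44174, M42734 and M43767) or on day 2 of involution (3 controls, M44448, M43768 and M43914, and 4 knockouts, M43196, M43767, M44176 and M44440). M is followed by the number of the mouse, and M43768 and M43767 stand at both stages. The sources used here do not name the promoter that drives the recombinase, the cells in which Jak1 was deleted, the strain or the age.

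Orosomucoids, also called alpha-1-acid glycoproteins, are small secreted glycoproteins of the lipocalin family that bind lipophilic molecules and many drugs. The liver secretes them into plasma, and their output climbs in the acute phase of inflammation under interleukin 6 class cytokines, interleukin 1 and glucocorticoids. Interleukin 6 class cytokines act through the receptor subunit gp130, the kinase JAK1 and the transcription factor STAT3. In the mammary gland, STAT3 becomes active when suckling ends, and acute-phase genes are among those transcribed in the involuting gland.

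The 3 genes lie next to each other on mouse chromosome 4 and are close copies. In the GENCODE transcripts of build GRCm38, Orm1 and Orm2 (775 bases each) were identical at 90.97% of aligned bases, Orm1 and Orm3 (773 bases) at 86.5%, and Orm2 and Orm3 at 88.5%. Windows of 50 bases were identical between Orm1 and Orm2 for 20.4% of the transcript, and windows of 100 bases for 6.95%. Orm3 shared 2.21% of its 50-base windows with Orm1 and 3.59% with Orm2, and no window of 100 bases with either. The sources used here give neither the read length nor the handling of reads that match several genes, so part of the reads of Orm1 and Orm2 may have been assigned to the other copy, and their sum is given beside them.

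The 250 bases before the start of Orm2 and of Orm3 are shown because these neighbouring copies differed in their levels in the involuting gland. Both are on the plus strand of GRCm38.p6 in the RefSeq promoter table, which matched 2 of the 3 genes, Orm2 at chr4:63362199-63362448 and Orm3 at chr4:63355908-63356157. Capitals mark a stretch of 23 bases that the copies share except at 2 positions, and the TATA box.
Orm2: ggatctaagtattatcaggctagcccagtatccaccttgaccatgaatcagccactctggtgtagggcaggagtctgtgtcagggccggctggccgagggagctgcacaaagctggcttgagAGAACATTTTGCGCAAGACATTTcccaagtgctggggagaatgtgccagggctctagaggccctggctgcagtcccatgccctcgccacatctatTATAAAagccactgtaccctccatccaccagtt
Orm3: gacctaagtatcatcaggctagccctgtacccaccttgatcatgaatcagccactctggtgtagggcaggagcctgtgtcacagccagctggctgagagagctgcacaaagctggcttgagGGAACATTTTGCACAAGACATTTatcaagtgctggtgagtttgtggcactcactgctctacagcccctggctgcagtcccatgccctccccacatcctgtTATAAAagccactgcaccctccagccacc

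The upstream stretches were identical at 218 of 245 aligned bases (88.98%). From Orm2 to Orm3, counted from the first base of the 23-base stretch, the substitutions were A1G and G13A. Both strands were searched for the letters of known factor sites. The hexamer AGAACA, bound as part of a site by the glucocorticoid receptor, stood in the Orm2 window 128 to 123 bases before the start and not in the Orm3 window. It occurs in 16.1% of 32851 RefSeq promoter windows of this length, which cover 27025 genes. The C/EBP palindrome TTGCGCAA stood in the Orm2 window 120 to 113 bases before the start, not in Orm3, and occurs in 0.164% of windows. The looser form TTGCNNAA, which includes that palindrome, was found in both copies and in 9.56% of windows. The STAT forms TTCNNNGAA (7.02% of windows) and TTCCNGGAA (0.913%), which overlap each other, and the full glucocorticoid receptor site, AGAACA and TGTTCT with any 3 bases between them (0.00913%), were found in neither window. The TATAAA box stood 33 bases before the start of Orm2 and 29 before that of Orm3, and 12.4% of windows hold it. A match is a string of letters and not a measured binding site.

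Values are FPKM, which scale the mapped fragments of a gene to its length and to the size of the library, so levels of different genes can be set side by side. The tables of the stages have different general levels, with the 75th percentile of a library at 3.06 to 3.21 FPKM at lactation and at 8.61 to 9.07 FPKM at involution, and may have been normalized separately. Tests were therefore made within a stage. Depth relative to the mean of the table ran from 0.723 to 1.29 at lactation and from 0.485 (knockout M43196) to 1.502 at involution. Control M44175 stood apart at lactation, with an FPKM total of 871630 against 312976 to 421592 in the other 5 libraries. Knockout M43196 had the highest total at involution, 1367560 against 590437 to 958496 in the other libraries of that stage. Jak1 itself was at 6.18 to 14.2 FPKM in controls and 9.51 to 11.2 FPKM in knockouts at lactation, and at 24.0 to 24.6 and 17.3 to 26.3 FPKM at involution. A value over the whole gene in whole tissue does not check the labels. The luminal epithelial markers, 10 genes that include Krt8, Krt18 and Elf5, summed to at least 653 FPKM in every library.

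Orm1 was the leading orosomucoid of the lactating gland, and its level varied widely from mouse to mouse in both genotypes. It stood at 134, 35.5 and 266 FPKM in controls M42186, M43768 and M44175, and at 169.7, 15.6 and 179 FPKM in knockouts M44174, M42734 and M43767. A library of each group, control M43768 and knockout M42734, lay far below the rest, and the groups overlapped. The standard deviation of Orm1 on the log2 scale was 1.396 in the lactating controls and 1.98 in the lactating knockouts. It was larger than that of 97.4% and 97.9% of the 4688 genes with a mean of at least 10 FPKM, short RNA entries included. The low control M43768 also held transcripts of the B cell gene Cd79a at 14.3 FPKM and of the T cell gene Cd3e at 6.10 FPKM, whereas the low knockout M42734 had 1.27 and 0.46 FPKM, and the part of these cells in the Orm1 level was not tested.

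Orm2, which encodes a close relative of the same plasma protein, was low at lactation. Its values were 10.8, 3.07 and 8.67 FPKM in control glands and 9.36, 1.17 and 10.2 FPKM in knockout glands, in the order of libraries given above. The libraries that were low in Orm1 were again the lowest in Orm2. Orm3, the least abundant copy, stood at 0.152, 1.32 and 1.83 FPKM in control glands and at 1.80, 1.01 and 2.83 FPKM in knockout glands, again with overlapping groups. The sum of the copies was 145, 39.9 and 277 FPKM in control glands and 181, 17.7 and 192 FPKM in knockout glands, so the sum followed Orm1.

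Knockout and control glands were not distinguished by any orosomucoid at lactation. The knockout minus control difference on the scale log2(rescaled FPKM + 1) was -0.39 ± 1.03 (SE) for Orm1, -0.24 ± 0.67 for Orm2 and 0.56 ± 0.37 for Orm3 (n = 3 and 3, adjusted p = 0.998 for each with limma and Benjamini-Hochberg adjustment over all genes tested). None of the 3 genes had an adjusted or an unadjusted p under 0.05, beside 1 of 9560 genes (0.0105%) and 228 genes (2.38%) in the whole comparison. The groups overlapped for all 3, whereas over all genes tested they did not overlap in 3.17% with the knockouts lower and in 2.89% with the knockouts higher. For the sum, the difference was -0.38 ± 0.9986, with p = 0.7 in a two-sided exact permutation test, which cannot go below 0.1 with 3 against 3 libraries. The standard errors of Orm1 and of the sum leave room for a difference of severalfold in either direction. The signs rested on single libraries: Orm1 was at 0.75 without knockout M42734, 0.20 without control M44175, -1.17 without control M43768, -0.93 without knockout M44174 and -0.996 without knockout M43767. Orm2 was at 0.54 without M42734, 0.11 without control M42186 and -0.69 without M43768. The sum was at 0.74 without M42734, 0.18 without M44175, -1.13 without M43768, -0.90 without M44174 and -0.97 without M43767.

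At day 2 of involution Orm2 was abundant in every control gland and low in every knockout gland. Controls M44448, M43768 and M43914 held 276, 379 and 754 FPKM of Orm2. Knockouts M43196, M43767, M44176 and M44440 held 47.1, 36.4, 60.9 and 43.1 FPKM. The groups did not overlap, and the knockouts lay close together while control M43914 lay above the other controls. The group means were 469.9 ± 252 FPKM (SD, n = 3) and 46.9 ± 10.3 FPKM (SD, n = 4), and the log2 difference was -3.17 ± 0.34 (SE).

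Orm1 was lower in knockout glands by a smaller factor. It stood at 367, 424 and 1133 FPKM in control glands and at 125, 134, 219 and 123 FPKM in knockout glands. The groups did not overlap, and control M43914 and knockout M44176 were the highest of their groups, as they were for Orm2. Group means were 642 ± 427 FPKM and 150.2 ± 45.9 FPKM (SD, n = 3 and 4), with a log2 difference of -1.91 ± 0.41 (SE). The sum of the copies was 651, 809 and 1892 FPKM in control glands against 184, 183, 285 and 169.8 FPKM in knockout glands, a log2 difference of -2.28 ± 0.38 (SE). The groups did not overlap in the sum, and the part of shared reads in the level of each copy was not tested.

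Orm3 did not follow its neighbours. Its values were 7.48, 5.83 and 4.23 FPKM in the involution controls and 11.9, 12.5, 5.80 and 3.22 FPKM in knockout glands. The groups overlapped, and control M43914, the highest in Orm1 and Orm2, was the lowest control in Orm3. The log2 difference was 0.34 ± 0.42 (SE). As a background, 553 of 12509 genes tested at involution (4.42%) were lower in every knockout than in every control, as Orm1 and Orm2 were, and 7 genes (0.056%) had a lower level with an adjusted p under 0.05 in limma. In either direction 9 genes (0.0719%) passed, 855 (6.84%) had an unadjusted p under 0.05, and the first count was 2, 2 and 3 without controls M44448, M43768 and M43914. The orosomucoids were chosen on this contrast, so nothing is read from their count against these shares.

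**Figure D1:**
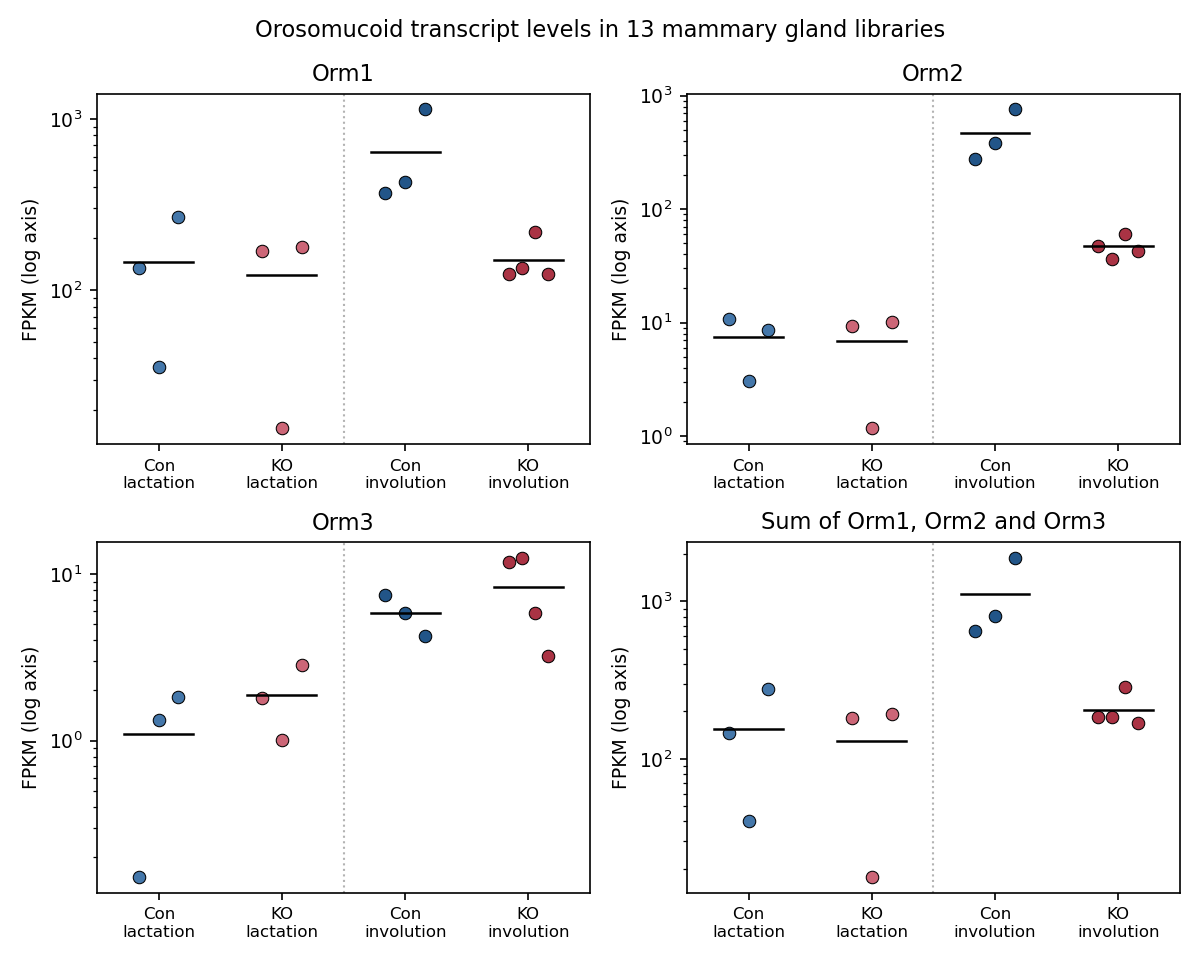
FPKM (log axis) of Orm1, Orm2, Orm3 and their sum in each library, with points for libraries, horizontal lines for group means and a dotted line between the separately deposited stages. At involution the 3 control points of Orm1, Orm2 and the sum lie above all 4 knockout points, whereas those of Orm3 overlap, and at lactation the groups overlap in every panel.

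**Figure D2:**
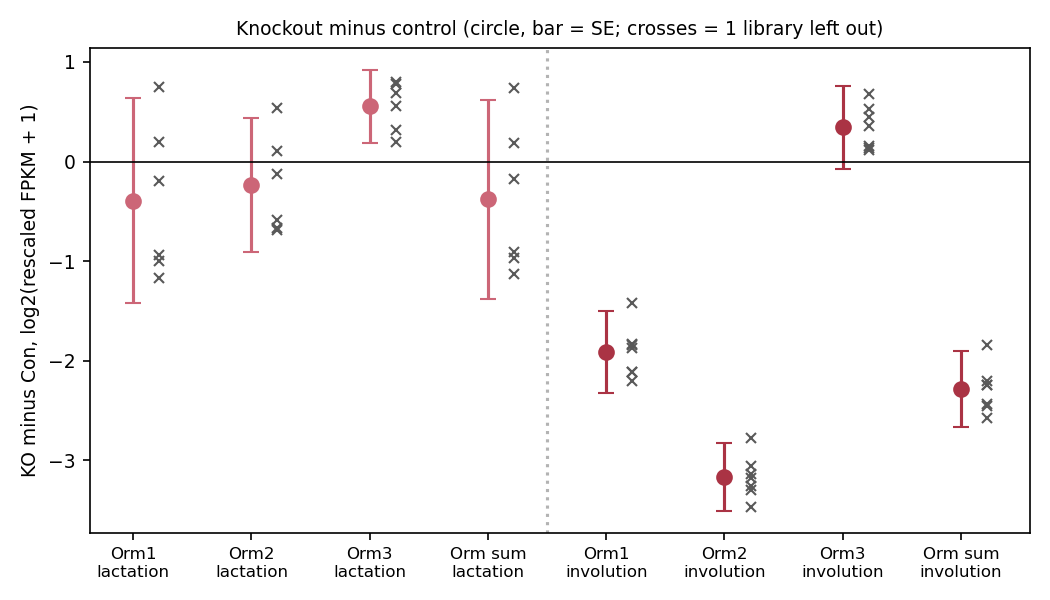
Knockout minus control difference of log2(rescaled FPKM + 1) for each gene and for the sum at each stage, with circles for the estimate, bars for its standard error and crosses for the estimate with 1 library left out. At involution every cross of Orm1, Orm2 and the sum stays below 0, from -3.46 to -1.42, whereas at lactation the crosses of Orm1, Orm2 and the sum fall on both sides of 0.

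The make-up of the orosomucoid transcripts differed between stages as well as between genotypes. A ratio of copies within a library does not depend on how the library was scaled. Orm2 reached 0.0803, 0.0866 and 0.0326 of the Orm1 level in the lactating controls and 0.0552, 0.0753 and 0.0566 in the lactating knockouts. In the involuting controls it reached 0.754, 0.892 and 0.666 of Orm1, and in the involuting knockouts 0.378, 0.271, 0.278 and 0.349. The ratio thus separated the stages in both genotypes without overlap, and it separated the genotypes at involution but not at lactation. Expressed as a share of the sum, Orm1 made up 87.7% to 96.2% in the 6 lactation libraries, 52.5% to 59.9% in the involution controls and 67.9% to 76.6% in the involution knockouts. Orm3 made up 0.105% to 5.67% at lactation, 0.224% to 1.15% in the involution controls and 1.90% to 6.82% in knockout glands. These ratios were not tested, and the use of reads common to Orm1 and Orm2 could bring the copies nearer to each other in any library.

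**Figure D3:**
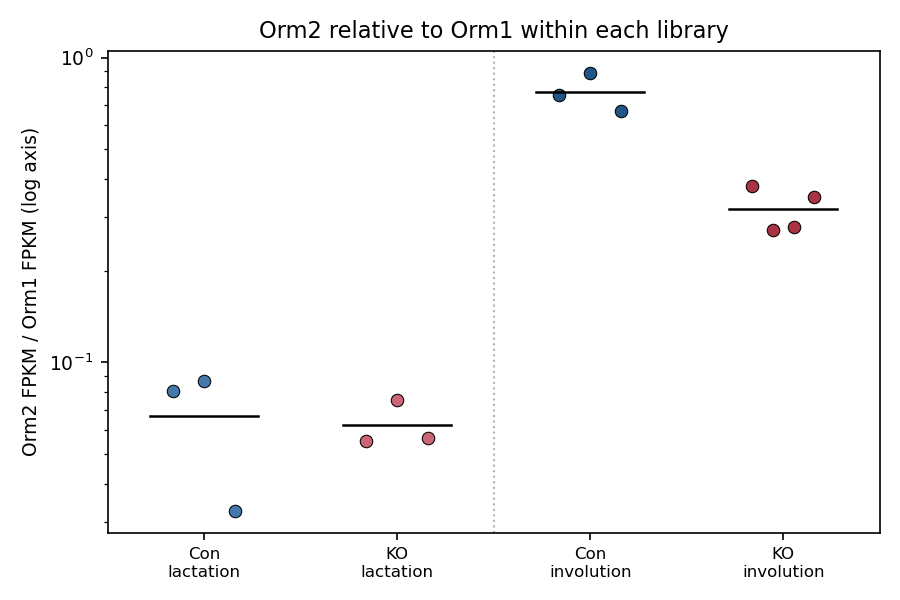
Ratio of Orm2 to Orm1 FPKM in each library (log axis), with points for libraries and horizontal lines for group means. The 6 lactation libraries lie between 0.0326 and 0.0866, the 4 involution knockouts between 0.271 and 0.378, and the 3 involution controls between 0.666 and 0.892.

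Across the stages the order of levels in FPKM differed between the copies, and this order includes the difference in general level between the tables. For Orm2, the lactation knockouts (1.17 to 10.2 FPKM) and the lactation controls (3.07 to 10.8) overlapped, the involution knockouts came next (36.4 to 60.9) and the involution controls were highest (276 to 754). For Orm1, the lactation knockouts (15.6 to 179), the lactation controls (35.5 to 266) and the involution knockouts (123 to 219) overlapped, and the involution controls stood above all of them (367 to 1133). For Orm3, each involution group lay above each lactation group, and the genotypes overlapped within a stage. Mean Orm2 was 62.6 times its lactation mean in control glands and 6.79 times in knockout glands. The same quotient was 4.42 and 1.24 for Orm1 and 5.32 and 4.44 for Orm3, in controls and knockouts. The quotients of Orm1 rested on single libraries: that of the controls was 2.72 without involution control M43914 and 7.56 without lactation control M44175, and that of the knockouts was 0.86 without lactation knockout M42734. With single libraries left out, the quotient of Orm2 ran from 43.6 to 80.02 in controls and from 4.80 to 8.90 in knockouts. Beside these, the median quotient over the 7733 genes that reached 1 FPKM in each library was 2.30 in control glands and 2.49 in knockout glands, which shows how far the tables differ in general level.

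The place of each gene among all 23951 symbols of its library is free of that difference. Counted from the top, Orm2 had ranks 2474 to 8952 at lactation, 1298 to 1893 in the involution knockouts and 157 to 286 in the involution controls. Orm1 had ranks 209 to 1851 at lactation, 409 to 718 in the involution knockouts and 111 to 222 in the involution controls. The rank of Orm1 in the involution knockouts thus lay within its range at lactation, whereas the ranks of Orm2 in these groups were apart. The Orm1 ranks of the involution controls overlapped lactation knockout M43767 at rank 209, whereas the lactation controls had ranks 243 to 828. The separation of the Orm1 involution controls from all lactation libraries in FPKM was thus not kept in ranks. Orm3 had ranks 6373 to 13035 at lactation and 4793 to 9408 at involution, so its stages overlapped in rank although they were apart in FPKM.

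The knockout effect at involution minus that at lactation, each taken within its table, was -2.93 ± 0.82 (SE) for Orm2, -1.52 ± 1.199 for Orm1, -1.90 ± 1.16 for the sum and -0.21 ± 0.62 for Orm3 on the log2 scale. These differences contain the involution contrast and are given without a test. Their standard errors take all libraries as independent, although the mouse numbers M43768 and M43767 stand at both stages. The value of Orm2 was -3.71 without the low lactation knockout M42734. That of Orm1 was -2.66 without M42734, -2.11 without control M44175, -0.98 without knockout M44174, -0.92 without knockout M43767 of lactation and -0.74 without control M43768 of lactation. The sum behaved as Orm1 did, with -3.02, -1.31 and -1.16 without M42734, M43767 and M43768, and Orm3 turned to 0.15, 0.03 and 0.12 without control M42186, without the lactation library of knockout M43767 or without knockout M44440.

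In RefSeq order the protein-coding neighbours Zfp618, Ambp, Kif12 and Col27a1 lie on the Orm1 side and Akna, Whrn, Atp6v1g1 and Tmem268 on the Orm2 side. Akna, which encodes a DNA-binding protein with an AT-hook, is next to Orm2, and its level was 4.97 to 6.07 FPKM in the involution controls and 2.22 to 3.71 FPKM in knockout glands. Its groups did not overlap, with a log2 difference of -0.72 ± 0.17 (SE), and it did not pass the threshold (adjusted p = 0.336 with limma). Whether the counting used strand is not given, and reads of overlapping genes could not be told apart. The collagen gene Col27a1, next to Orm1, was at 0.324 to 1.17 FPKM in control glands and 0.771 to 1.47 FPKM in knockout glands, with overlapping groups. Atp6v1g1, a subunit of the vacuolar proton pump, stood at 311 to 562 and 285 to 454 FPKM, and Tmem268, listed under an older name, at 12.4 to 14.1 and 8.45 to 15.8 FPKM. Kif12 was listed at 0 in all 13 libraries, and Zfp618, Ambp and Whrn were below the expression filter of 1 FPKM in at least 3 libraries of the involution table.

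The genes most like Orm2 were sought among 4469 other genes with a mean of at least 10 FPKM, here without the microRNA and small nucleolar RNA entries, by Pearson's r over the 13 libraries after the mean of each table was subtracted. The 6 highest were Atp6v1a (0.89), Orm1 (0.88), Saa3 (0.88), Agps (0.88), Clca2 (0.87) and Tsc22d1 (0.87), whereas Orm3 had r = -0.23. Atp6v1a encodes a vacuolar proton pump subunit, Saa3 an amyloid protein induced in inflammation, and Agps an enzyme of ether lipid synthesis. In each of the 6 genes every involution knockout was below every involution control, as in 4.42% of all genes tested, and because r was taken over libraries that include the contrast on which Orm2 was chosen, nothing is read from this. Clca2, of a family of chloride channel regulators, stood at 225 to 445 FPKM in the involution controls and 30.8 to 93.3 FPKM in knockout glands. Tsc22d1, a transcriptional regulator, stood at 301 to 500.4 and 148 to 191 FPKM, and Agps at 32.0 to 85.6 and 13.3 to 22.8 FPKM. These coefficients are a description over libraries that share a group and a table.

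Beside the orosomucoids, a list of 36 other acute-phase genes held members that differed in either direction at involution. The list was not split by whether a gene rises or falls in the acute phase. Its counts by sign and its median mix both kinds. Of 23 members tested, 12 were lower and 11 higher in knockout glands by sign, with a median log2 difference of -0.44 against 0.01 over all 12509 genes tested. With limma none passed as lower and 1 passed as higher, beside 0.056% and 0.016% of all genes, and 10 lower and 5 higher members had an unadjusted p under 0.05 (6.84% of all genes in either direction). The member that passed was Trf, the gene of the iron carrier transferrin, which was listed at 0 in all 3 controls and at 2293 to 7718 FPKM in knockout glands. In the lactation controls it was at 14159 to 20572 FPKM, and a listed 0 can be a failed estimate, so no fold is given. Saa3 stood at 445 ± 115 FPKM in control glands and 36.5 ± 18.8 FPKM in knockout glands (SD, n = 3 and 4, adjusted p = 0.0514 with limma). Lrg1, a leucine-rich plasma glycoprotein, stood at 726 ± 102 and 288 ± 80.8 FPKM (adjusted p = 0.276 with limma), and the LPS co-receptor gene Cd14 at 1879 ± 427 and 758 ± 202 FPKM (adjusted p = 0.309). Mt2, a metallothionein, stood at 729 ± 145 and 346 ± 95.1 FPKM (adjusted p = 0.405 with limma). Without control M44448 or knockout M44440, or with no expression filter, the median of the list was -0.05, 0.08 and 0.04. With limma 2 members passed with quantile normalization, with scaling to the total or without knockout M44440. In the other settings run for the list 1 passed.

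The groups did not overlap in 11 of these 23 genes. The knockouts were lower in Saa1, Saa2, Saa3, Lrg1, Lbp, Lcn2, Mt2, Cd14 and Stc1, and higher in Trf and in Hp, the gene of the haemoglobin carrier haptoglobin, beside 4.42% and 2.67% of all genes tested. Of the genes of this list, only Saa1, Saa2 and Saa3 had log2 differences below that of Orm2, from -4.20 to -3.69. At lactation 18 members were tested and none passed with limma, and 7 were lower and 11 higher by sign. An unadjusted p under 0.05 was found for 2 lower and 1 higher (2.38% of all genes in either direction). The median was 0.27 (0.01 with no filter, -0.04 without knockout M44174, 0.42 without control M42186, 0.48 without knockout M42734).

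**Figure D4:**
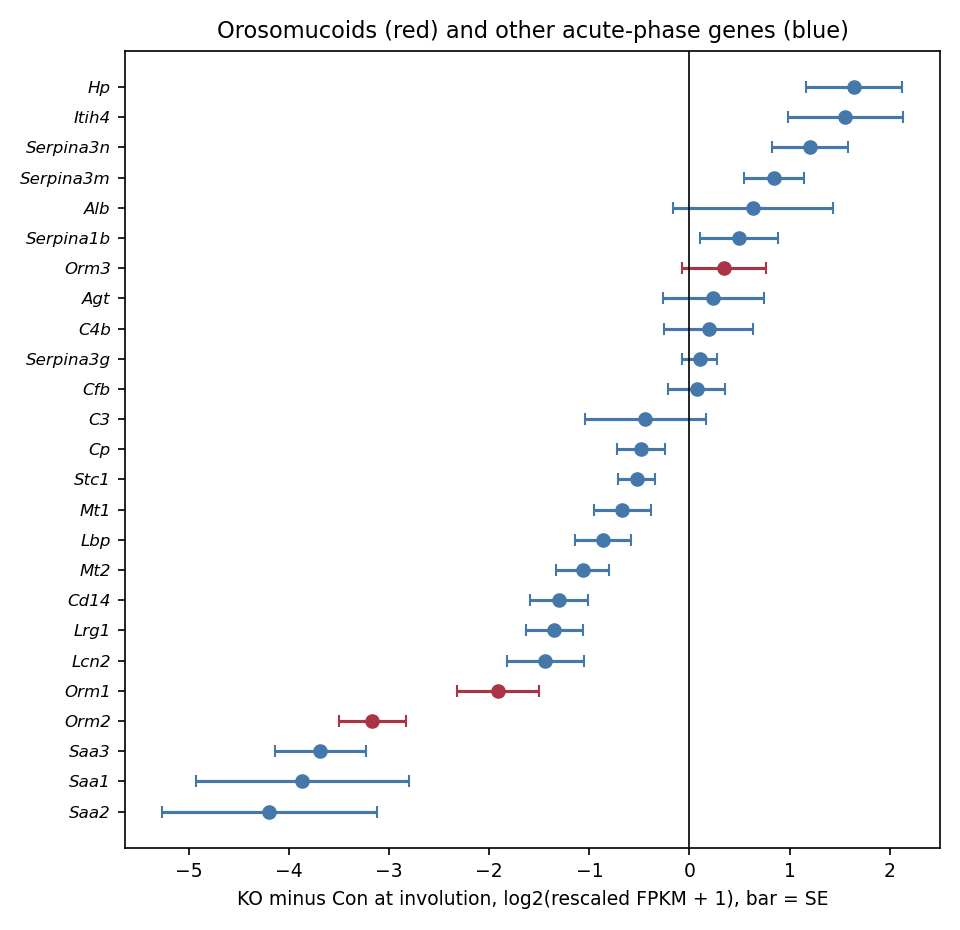
Knockout minus control difference at involution, on the log2(rescaled FPKM + 1) scale with bars for the standard error, of Orm1, Orm2 and Orm3 (red) and of the tested acute-phase genes with values above 0 in both groups (blue). Orm2 at -3.17 and Orm1 at -1.91 lie next to the serum amyloid genes at the lower end, Orm3 at 0.34 lies among the genes above 0, and Hp is at the upper end.

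Other lipocalins were compared because orosomucoids share their fold. Of 21 relatives, 7 were expressed enough to be tested at involution, and 9, among them Lcn3, Lcn4 and Obp2a, were listed at 0 in all 13 libraries. By sign 2 were lower and 5 higher in knockout glands, with a median log2 difference of 0.34 (0.03 without control M43914 and 0.98 without knockout M44440). None passed with limma, and 1 lower and 1 higher had an unadjusted p under 0.05 (6.84% of all genes in either direction). Lcn2, which binds bacterial iron carriers, was apart from the others at 10085 ± 3172 FPKM in control glands and 3694 ± 1353 FPKM in knockout glands (adjusted p = 0.452 with limma). Apod stood at 23.4 ± 18.8 and 38.9 ± 20.5 FPKM, Rbp4, the retinol carrier of plasma, at 51.4 ± 32.5 and 71.8 ± 43.3 FPKM, and C8g at 3.75 ± 1.401 and 4.25 ± 1.06 FPKM, all with overlapping groups.

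Among 24 genes of the cytokines, receptors and transcription factors known to act on orosomucoid genes, 20 were tested at involution and none passed with limma. By sign 11 were lower and 9 higher, 6 lower and 2 higher had an unadjusted p under 0.05 (6.84% of all genes in either direction), and the median was -0.08 (0.01 without knockout M43196). The groups were apart, with the knockouts lower, in Il1b, Osmr, Il1rap, Stat3 and Socs3, and, with the knockouts higher, in Il11ra1 and Il1r1, beside 4.42% and 2.67% of all genes tested. Socs3, the feedback inhibitor of this pathway, stood at 23.4 ± 4.51 and 9.47 ± 1.37 FPKM (adjusted p = 0.0898 with limma). Osmr, the oncostatin M receptor gene, stood at 28.2 ± 3.02 and 14.1 ± 3.39 FPKM (adjusted p = 0.289 with limma), Stat3 at 96.96 ± 13.9 and 62.8 ± 4.54 FPKM (0.480) and Il11ra1, a receptor for interleukin 11, at 18.8 ± 1.68 and 31.1 ± 5.58 FPKM (0.417). At lactation none of 14 tested genes passed or had an unadjusted p under 0.05, 6 were lower and 8 higher by sign, and the median was 0.06 (from -0.06 without control M44175 to 0.21 with scaling to the total).

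Glucocorticoid-induced genes were listed because glucocorticoids act on orosomucoid genes in liver. Of 13 genes 12 were tested at involution and none passed with limma, 8 were lower and 4 higher by sign, 4 lower ones had an unadjusted p under 0.05 (6.84% of all genes in either direction), and the median was -0.21. This median was -0.06 with no filter, -0.51 without knockout M43767, -0.45 without control M43914, -0.07 without knockout M43196, and -0.12 without control M43768 or knockout M44440. Pdk4, a kinase of fuel choice, stood at 88.4 ± 7.15 FPKM in control glands and 45.1 ± 16.3 FPKM in knockout glands (adjusted p = 0.424 with limma). Errfi1 stood at 26.4 ± 3.03 and 17.6 ± 4.32 FPKM, and Mt1, a metallothionein, at 1781 ± 410 and 1099 ± 261 FPKM, with overlapping groups. At lactation 10 of 11 tested genes of this list were lower and 1 higher by sign, with a median of -0.48 (-0.04 without control M42186) against 0.01 over all genes, and Per1 and Mt2 were lower in every knockout, beside 3.17% of all genes. None of the 11 passed with limma or had an unadjusted p under 0.05. Of 4 lipocalins tested at lactation 2 were lower and 2 higher, with a median of 0.40 (-0.10 with no filter, -0.07 without control M43768, 0.05 without knockout M44174, 0.72 without knockout M42734 and 0.98 without control M42186), and none passed with limma. Rbp4 had an unadjusted p under 0.05 (2.38% of all genes) and was higher in every knockout (2.89%).

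Markers of other cells were read beside the orosomucoid levels. In whole tissue, fewer cells of a type and less RNA per cell cannot be told apart. The 10 hepatocyte markers, with Alb and Ttr among them, summed to 0.871 to 5.001 FPKM at lactation, to 2.80 to 8.83 FPKM in the involution controls and to 1.41 to 30.7 FPKM in the involution knockouts, beside orosomucoid sums of up to 1892 FPKM in control glands. The highest hepatocyte sums, 30.7 and 19.6 FPKM, were in knockouts M43196 and M43767, which had orosomucoid sums of 184 and 183 FPKM. The 11 neutrophil markers measured summed to 57.7 to 239 FPKM in the involution controls and 36.3 to 473 FPKM in knockout glands, with the granule genes Camp and Ngp at 31.5 and 34.5 FPKM in M43196 and under 1 FPKM in the other 12 libraries. In involution controls M44448, M43768 and M43914 the neutrophil sums were 57.7, 165 and 239 FPKM, beside orosomucoid sums of 651, 809 and 1892 FPKM. In involution knockouts M43196, M43767, M44176 and M44440 the neutrophil sums were 473, 71.1, 36.3 and 36.8 FPKM, beside 184, 183, 285 and 169.8 FPKM. M43196 had the lowest relative depth of the involution libraries. The 10 adipocyte markers all had a positive log2 difference at both stages, with sums of 4340 to 8679 FPKM in the involution controls and 4728 to 16980 FPKM in knockout glands, and control M43914, the highest in orosomucoids, had the lowest adipocyte sum of the involution libraries. The luminal markers had a median log2 difference of -0.13 at involution. All 10 adipocyte and 10 luminal markers were tested at both stages. Of the 10 hepatocyte markers none was tested at lactation and 3 at involution, and of the 11 neutrophil markers 2 and 5. None of the tested markers of these lists passed with limma at either stage. At an unadjusted p under 0.05, 4 adipocyte markers were higher at lactation (2.38% of all genes in either direction). Plin1, Lipe and Pparg were higher in every lactation knockout, beside 2.89% of all genes. At involution 1 luminal marker was lower at an unadjusted p under 0.05 (6.84% of all genes in either direction). Sums of 2 other lists were apart at involution: the 9 basal markers at 252 to 428 FPKM in control glands and 477 to 559 FPKM in knockout glands, and the 11 macrophage markers at 1995 to 2681 and 927 to 1494 FPKM, most of the latter being Cd14. The macrophage markers did not go one way, since 4 were lower and 7 higher by sign, with a median of 0.29. Cx3cr1, a chemokine receptor gene, was lower in every knockout (5.37 to 6.15 against 2.19 to 4.79 FPKM, adjusted p = 0.652 with limma). Mrc1, the mannose receptor gene, was higher in every knockout (4.73 to 6.57 against 8.08 to 13.8 FPKM, adjusted p = 0.449 with limma). Of all genes tested 4.42% were lower and 2.67% higher in every knockout. An unadjusted p under 0.05 was found for 2 lower and 1 higher macrophage markers (6.84% of all genes in either direction), and none passed with limma. The defining macrophage gene Emr1 was at 3.41 to 5.01 and 3.35 to 9.18 FPKM, with overlapping groups. Fibroblast, endothelial and lymphocyte sums overlapped at involution. Fibroblast genes nevertheless went one way, since 8 of 8 tested were higher by sign in the involution knockouts (median 0.79). At lactation 7 of 7 were higher (median 0.73). Of these, 3 had an unadjusted p under 0.05 at involution (6.84% of all genes in either direction) and 1 at lactation (2.38%). Col3a1 was higher in every involution knockout (2.67% of all genes) and Pdgfra in every lactation knockout (2.89%). No fibroblast gene passed with limma. At lactation the 8 endothelial markers summed to 18.9 to 28.8 FPKM in control glands and to 36.6 to 50.7 FPKM in knockout glands. Of 7 endothelial markers tested there, 6 (Pecam1, Cdh5, Kdr, Tek, Tie1 and Emcn) were higher in every knockout, beside 2.89% of all genes. An unadjusted p under 0.05 was found for 4 of them (2.38% of all genes in either direction), and none passed with limma. The part of these cells in the orosomucoid levels was not tested.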

How the data were processed

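RNA from 13 mammary gland libraries of 11 mouse numbers was measured. Per the labels, 6 libraries are controls and 7 are Jak1 knockouts. Per the submitters' processing notes, CASAVA, cutadapt, TopHat and build mm9 were used, and neither their versions nor the program that made the expression values is named in the sources used here. The authors deposited 1 table of FPKM values per stage, without counts, so depth was estimated only relatively, from the lowest values, and no counting interval can be given. The 3 genes, the lists and the tests were chosen with earlier results of these data known.

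Deposited FPKM values were rescaled within a table by median-of-ratios factors and taken as log2(FPKM + 1). Genes that reached 1 FPKM in 3 or more libraries were tested with limma 3.58.1 (trend) in R 4.3.3, with Benjamini-Hochberg adjustment and a threshold of 0.05. The sum was tested with an exact permutation test. All 3 genes passed the filter at both stages. The scripts were tested on simulated data. No source says that mice of a group were independent beyond their numbers, and the p-values take the libraries of a group as independent.

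Named were the members, the 6 genes most like Orm2 by each of 2 measures, 4 neighbours on each side, and, in each list, the 4 genes with the smallest p at involution and means of at least 1 FPKM. Of the 13 lists, 4 were pathways (acute-phase, lipocalin, signalling and glucocorticoid genes) and 9 were cell types, of which those that bear on the orosomucoids are printed. Genes outside this rule, among them Trf, Hp and the genes whose groups did not overlap, were named after their values were seen. Alternatives were another pseudocount, other scalings, no filter, array weights and each library left out. Promoters were read from RefSeq and aligned with Biopython 1.88.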

Additional observations from a re-analysis of the deposited data

Results flagged for a closer look

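Among the 4 involution knockouts, M44176 stood far from the others in Orm1, at 219 FPKM against 123 to 134 FPKM. Its gap to the nearest library was 0.888 of the range of the group, above Dixon's critical value of 0.829 for 4 samples. The orosomucoid sum of M44176, 285 FPKM against 169.8 to 184 FPKM, was flagged in the same way with 0.881, and this sum is mostly Orm1. In all, 8 quantities were checked, and chance flags about 5% of groups. Without M44176 the knockout minus control difference was -2.11 for Orm1 and -2.45 for the sum on the log2 scale.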

How the results depend on the processing

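At involution Orm1, Orm2 and the sum were lower in the knockouts, and Orm3 higher, with the other pseudocount, with each of the 3 other scalings and with each library left out, and for the 3 genes also with no filter. Array weights were run for the counts over all genes only. With single libraries left out the log2 differences ran from -2.20 to -1.42 (Orm1), -3.46 to -2.77 (Orm2), 0.12 to 0.68 (Orm3) and -2.57 to -1.84 (sum). At lactation they ran from -1.17 to 0.75, -0.69 to 0.54, 0.19 to 0.80 and -1.13 to 0.74, and none passed the threshold. With a pseudocount of 0.1 the lactation difference of Orm3 was 1.12 ± 0.76 (SE), outside its range here, and it did not pass either. The sign turned for Orm1 without M44175 (0.20) or M42734 (0.75), for Orm2 without M42186 (0.11) or M42734 (0.54), and for the sum without M44175 (0.18) or M42734 (0.74). The difference of the effect between stages ran from -2.66 to -0.74 for Orm1, -3.71 to -2.48 for Orm2, -0.45 to 0.15 for Orm3 and -3.02 to -1.16 for the sum. It turned for Orm3 without M42186 (0.15), lactation knockout M43767 (0.03) or M44440 (0.12). With a pseudocount of 0.1 it was -0.75 ± 0.95 (SE) for Orm3, outside the range with libraries left out. Over all genes, 1 passed at lactation, 2 with a pseudocount of 0.1, 2 with scaling to the total, 9 with array weights, and 0 to 3 with a library left out. At involution 9 passed, 20 with array weights, and 2 to 9 with a library left out. The cause was not tested.

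No paired analysis was possible because the control and knockout groups compared share no mouse number. FPKM without counts gives no limit of detection, and how precisely Orm3, near 1 FPKM at lactation, was measured cannot be given. Its standard error there on the log2(rescaled FPKM + 1) scale, 0.37, was smaller than those of Orm1 (1.03) and Orm2 (0.67). With a pseudocount of 0.1 in place of 1, the standard errors were 0.76 (Orm3), 1.06 (Orm1) and 0.84 (Orm2). The small value of Orm3 thus depended on the added constant, and no precision is read from it.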

Other observations

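After the mean of each of the 4 groups was subtracted, the genes that varied most like Orm2 over the 13 libraries were Orm1 (Pearson's r = 0.94), Ccng1 (0.94), Rtn4 (0.87), Nckap1 (0.86), Fbxo36 (0.85) and Abcg2 (0.84), whereas Orm3 had r = -0.05. Ccng1 encodes a cyclin induced by p53, and Abcg2 a transporter of the milk-secreting epithelium. Unlike Orm1, these other 5 genes had overlapping control and knockout groups at involution. Abcg2 was at 175.5 to 289 FPKM in the lactation controls and 29.2 to 86.9 FPKM in the involution controls, and Ccng1 at 15.9 to 38.8 and 44.9 to 86.3 FPKM.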
